A study of Rattus norvegicus with 9 samples.

Results

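The 10 genes described here encode proteins that fold procollagen in the endoplasmic reticulum (ER) and trim it outside the cell. They were chosen by name: P4ha1, P4ha2 and P4ha3, the alternative alpha subunits of collagen prolyl 4-hydroxylase; P4hb, its beta subunit; Serpinh1, Fkbp10, P3h1 and Crtap, chaperones and modifying enzymes of the ER; and Pcolce and Bmp1, which act on the secreted molecule. All 10 were found among the 17602 genes of the table, and all 10 were among the 16512 genes above 0 TPM (an expression unit scaled by transcript length and by the library's total) in at least 3 libraries, which were tested. Crtap is listed under the symbol Crtapl1 and was matched by its gene identifier, 363158, and the other 9 carry their own symbols.

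RNA sequencing was carried out on knee tissue of wild-type male Lewis rats aged 10 to 12 weeks, with 3 libraries in each of 3 groups. The pMx libraries hold the tissue that had regrown 1 week after partial meniscectomy, an operation on both knees that left only the posterior part of the medial meniscus. The regrown tissue was freed of adjoining synovium. The sham libraries hold synovium from beside the medial meniscus 1 week after an arthrotomy alone, and the intact libraries hold such synovium from knees that had no operation. The pMx and sham groups therefore differed both in the operation and in the tissue taken, and their effects cannot be told apart. The labels call the replicates biological without saying whether each was 1 animal or a pool, so p-values measure the spread between these libraries.

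A procollagen chain is hydroxylated on proline as it enters the ER, and 4-hydroxyproline gives the finished triple helix its stability at body temperature. Prolyl 4-hydroxylase is a tetramer of alpha subunits, which hold the active site, and beta subunits, which are protein disulfide isomerase. The complex of P3h1, Crtap and cyclophilin B (Ppib) 3-hydroxylates single prolines and helps the chains fold, Fkbp10 isomerizes peptide bonds before proline, and Serpinh1 (HSP47) binds the folded helix on its way to the Golgi. Outside the cell Bmp1 removes the C-terminal propeptide, after which fibrils can form, and Pcolce binds the propeptide and speeds that step. Loss of several of these proteins causes brittle bone disease in humans.

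Markers of other cell types differed between libraries and between groups. Summed over 11 skeletal muscle markers, intact replicate 3 held 37386 TPM, against 70.7 and 191 TPM in the other intact libraries, 184 to 2367 TPM in the sham libraries and 73.5 to 2330 TPM in the pMx libraries. The 10 adipocyte markers summed to 3686 to 9607 TPM in intact, 6056 to 7194 TPM in sham and 429 to 698 TPM in pMx libraries, and all 10 of 10 were lower in pMx than in sham with an adjusted p below 0.05 and a log2 fold change below -1. The 10 macrophage markers summed to 2726 to 4624, 7111 to 7923 and 7998 to 8337 TPM in the same order, with 1 higher and 2 lower in pMx than in sham by the adjusted p. Most of the sum was Lyz2, at 5290 to 6027 TPM in sham and 6523 to 6746 TPM in pMx libraries. It did not pass in pMx versus sham (adjusted p = 0.437 in limma). The 10 fibroblast markers summed to 7581 to 10046 TPM in intact, 9505 to 10467 TPM in sham and 14059 to 14945 TPM in pMx libraries. A large part of the pMx sum was Lum, at 6842 to 7153 TPM, against 1789 to 2558 TPM in sham libraries. By the adjusted p 4 of the 10 were higher (Thy1, Lum, Col6a1 and Pdgfrb) and 4 lower (Dpp4, Pi16, Dcn and Cd34) in pMx than in sham. Prg4, the lubricin gene of the synovial lining, was at 2100 to 2986 TPM in intact, 1245 to 1451 TPM in sham and 1084 to 1738 TPM in pMx libraries. The chondrocyte markers, 9 of 10 of which are in the table, summed to 262 to 674, 505 to 605 and 982 to 1190 TPM. Most of that sum was Comp, at 786 to 933 TPM in pMx libraries, which did not pass in pMx versus sham (adjusted p = 0.0865 in limma). In that comparison 3 of the 9 were higher DEGs: Acan, the main proteoglycan of cartilage (log2 fold change 3.43; 6.84 to 32.5 TPM in sham and 182 to 236 TPM in pMx), Sox9, the transcription factor of chondrocytes (1.68), and Hapln1, a link protein (0.85 to 1.20 TPM in sham and 2.55 to 6.43 TPM in pMx). Of the others, Matn3 was higher and Cnmd and Col9a1 were lower by the adjusted p alone. Col2a1, the defining collagen of cartilage, was at 16.14, 0.29 and 0.24 TPM in intact, 0.14 to 2.26 TPM in sham and 0.56 to 0.89 TPM in pMx libraries, so that intact replicate 1 stood apart. The same library had the highest Comp of its group (648.73 TPM, against 343.08 and 253.88 TPM). The 7 Schwann cell markers summed to 565 to 867, 639 to 779 and 292 to 308 TPM, and all 7 were lower in pMx than in sham by the adjusted p, 5 of them as DEGs, with a median log2 fold change of -1.62. The 9 endothelial markers summed to 1022 to 1336, 855 to 925 and 674 to 852 TPM, and 4 were lower in pMx than in sham by the adjusted p and none higher. The 8 lymphocyte markers summed to 26.0 to 47.3, 45.3 to 51.5 and 43.4 to 47.2 TPM, with 3 lower and none higher. The RNA integrity values that the study lists rose from intact to sham to pMx without overlap and cannot be told apart from the groups. From intact to sham, by the adjusted p, 4 of the 10 fibroblast markers were higher (Thy1, Lum, Col6a1 and Dpp4) and 1 lower (Prg4). Higher too were 5 of the 10 macrophage, 3 of the 8 lymphocyte and 2 of the 9 chondrocyte markers, and 3 of the 9 endothelial markers were lower. No adipocyte, muscle or Schwann cell marker passed in sham versus intact. Of all genes tested, 17.7% were higher and 18.9% lower in pMx than in sham by the adjusted p, and 3.36% and 4.85% as DEGs. In sham versus intact 6.73% were higher and 5.97% lower by the adjusted p. The part of these marker differences in the results below was not tested. In bulk tissue, fewer cells of a type and less RNA per cell cannot be told apart.

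The sequence just before the start of 5 of the genes is shown. The alpha subunits were taken because they are members of a family that moved by different amounts. Serpinh1 and P3h1 were taken because they had the highest fold changes in pMx versus sham among the others with a promoter sequence. The sequences are RefSeq promoters of the build GRCr8, whereas the submitters' processing notes name mRatBN7.2, and they are written 5′ to 3′ on the strand of the gene, 120 bases up to the base before the start. Capitals mark CCAAT, one part of the ER stress element, and likewise CCACG, its other part, wherever they stand on either strand. The core letters of the hypoxia response element, ACGTG, are marked in the same way. P4ha1 lies on the plus strand at chr20:27844926-27845045, P4ha2 on the plus strand at chr10:38743774-38743893, P4ha3 on the plus strand at chr1:164040744-164040863, Serpinh1 on the minus strand at chr1:163062977-163063096 and P3h1 on the plus strand at chr5:138127120-138127239.
P4ha1: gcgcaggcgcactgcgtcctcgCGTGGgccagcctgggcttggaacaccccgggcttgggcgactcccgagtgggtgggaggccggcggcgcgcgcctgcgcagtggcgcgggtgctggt
P4ha2: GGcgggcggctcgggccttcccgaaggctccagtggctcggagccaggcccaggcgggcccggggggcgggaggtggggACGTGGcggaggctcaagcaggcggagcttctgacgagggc
P4ha3: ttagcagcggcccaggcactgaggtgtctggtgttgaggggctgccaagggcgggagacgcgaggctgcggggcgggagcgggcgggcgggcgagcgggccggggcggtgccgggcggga
Serpinh1: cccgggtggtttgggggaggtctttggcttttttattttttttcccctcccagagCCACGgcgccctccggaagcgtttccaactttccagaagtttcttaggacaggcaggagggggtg
P3h1: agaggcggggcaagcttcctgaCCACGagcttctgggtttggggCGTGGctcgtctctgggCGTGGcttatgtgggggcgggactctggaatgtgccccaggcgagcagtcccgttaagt
The leading capitals of P4ha2 are the end of a match that begins upstream of the printed stretch. P4ha3 is the only one of the 5 with no capitals, and P3h1 has the most matches to CCACG, with 3 in the printed stretch.

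Promoters running from 250 bases before to 50 bases after the start were available for 8 of the 10 genes, Fkbp10 and Bmp1 not being among them. CCACG was found on either strand in 7 of the 8, P4ha3 being the exception, against 41.7% of the 16217 promoters of genes in the table. ACGTG was found in 2 of the 8 (P4ha1 and P4ha2), against 22.5% of all promoters. CCAAT was found in 2 of the 8 (P4hb and P3h1), against 37.0%. The whole ER stress element, in which CCAAT and CCACG are separated by 9 bases, was found in none of the 8 and in 0.111% of all promoters. GAANNTTC, the core unit of the heat shock element, was found in 2 of the 8 (P4hb and Serpinh1), against 6.29%, and the match in Serpinh1 begins at position -30 on the gene's strand. TATAAA was found in 1 of the 8 (Crtap), against 9.08%. GGGCGG, the box bound by Sp1, was found in all 8, against 52.5%, and P4ha3 has 6 copies of it within the printed stretch. P4ha2 holds the only overlap of capitals, where ACGTG and the reverse of CCACG share bases. These are matches of letters and not sites.

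The comparison of pMx with sham asked how the genes stood in regenerating tissue relative to synovium that had also been operated on. Every one of the 10 genes was higher in pMx, and in none did a pMx library reach down to a sham library. This was so for 27.0% of all genes tested, the share that was higher in pMx without overlap. Differentially expressed genes (DEGs) were those with an adjusted p below 0.05 in limma and an absolute log2 fold change above 1 on the log2(TPM + 1) scale. By that rule 5 of the 10 genes were DEGs higher in pMx (P4ha1, P4ha3, Serpinh1, Fkbp10 and P3h1), against 3.36% of all genes. By the adjusted p alone all 10 were higher, against 17.7% of all genes. The median log2 fold change was 1.07 for the 10 genes and -0.01 for all genes tested.

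The sham synovium was compared with the intact synovium to see what opening the joint alone went with. Here 1 of the 10 genes, P4ha3, was a DEG, against 1.42% of all genes higher in sham. By the adjusted p alone 8 of the 10 were higher, against 6.73% of all genes, and P4ha1 and Crtap did not pass. The same 8 were higher in sham without overlap of the groups, against 14.2% of all genes. The median log2 fold change was 0.64, against -0.02 for all genes tested. The count of 8 by adjusted p was 4 without sham replicate 1 and 3 without sham replicate 2. It was 7 without intact replicate 2, where Pcolce did not pass. When only the 6 intact and sham libraries were fitted, without the pMx libraries that share the estimate of the spread, it was 3. P4ha3, Serpinh1 and Bmp1 were past the threshold in each of these fits. The count stayed at 8 without sham replicate 3 or any single pMx library. Without intact replicate 3, the library with the muscle transcripts, it was 8 and the median log2 fold change of the 10 genes was 0.52. Without intact replicate 1, the library with Col2a1, they were 8 and 0.65.

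Set against intact synovium, pMx tissue had 9 of the 10 genes as higher DEGs, against 6.40% of all genes, with Crtap as the exception. All 10 were higher by the adjusted p alone, against 23.4% of all genes. The median log2 fold change was 1.51 with all libraries, 1.39 without intact replicate 3 and 1.56 without intact replicate 1, against -0.03 for all genes tested. The 3 comparisons share libraries, so their values are given side by side and are not independent of each other. Summed, the 10 genes took 0.206% ± 0.0325 of all TPM in intact, 0.317% ± 0.0225 in sham and 0.685% ± 0.0167 in pMx libraries (SD, n = 3 each).

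**Figure D1:**
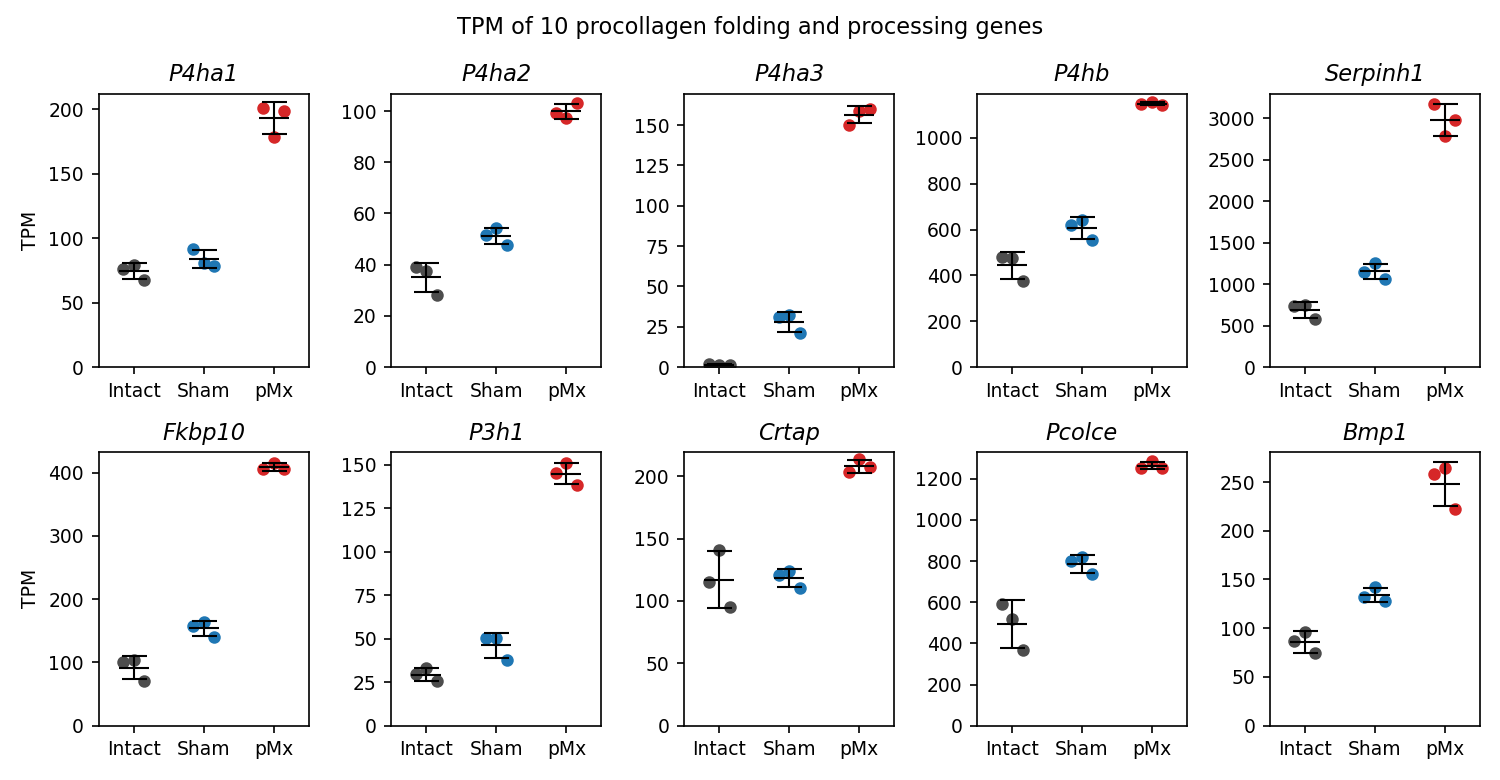
TPM (vertical axis, from 0, with its own scale for each gene) of the 10 genes in the intact, sham and pMx groups. Points are libraries, and lines are the mean and 1 SD of 3 libraries. In each panel the 3 pMx points lie above all 6 others, and the sham points overlap the intact points only for P4ha1 and Crtap.

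The alpha subunits of prolyl 4-hydroxylase differed most among themselves. P4ha1, the subunit made in most tissues, had 75.80, 79.66 and 67.90 TPM in intact, 91.96, 81.18 and 78.66 TPM in sham and 201.36, 178.72 and 198.99 TPM in pMx tissue. The intact and sham libraries overlapped and the pMx libraries stood above both. Its log2 fold change was 1.19 (SE 0.0853, adjusted p = 4.04e-05 in limma) for pMx versus sham and 0.17 (95% interval -0.02 to 0.37, adjusted p = 0.229) for sham versus intact. The value for sham versus intact ranged from 0.10 to 0.22 when single libraries were left out.

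P4ha2, the subunit known from cartilage and other skeletal cells, was at 39.17, 37.56 and 28.37 TPM in intact, 51.55, 54.34 and 47.82 TPM in sham and 99.13, 97.27 and 103.11 TPM in pMx libraries. The 3 groups did not overlap. The log2 fold change was 0.95 (SE 0.113, adjusted p = 3.64e-04) for pMx versus sham, just under the threshold for a DEG, and 0.55 (adjusted p = 0.0200) for sham versus intact.

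P4ha3, the alpha subunit described last and the least abundant in most adult tissues, was at 1.77, 1.28 and 1.42 TPM in intact, 31.37, 32.28 and 20.99 TPM in sham and 150.35, 158.82 and 159.90 TPM in pMx libraries. The lowest sham library was thus more than 10-fold above the highest intact library, and the lowest pMx library lay well above the highest sham library. In pMx versus sham the log2 fold change was 2.45 (SE 0.155, adjusted p = 2.76e-05), the 27th highest of the 16512 genes tested. In sham versus intact it was 3.53 (adjusted p = 6.71e-05), the 7th highest, and in pMx versus intact it was 5.99 (adjusted p = 3.62e-07), the 8th highest. The pseudocount of 1 TPM lowers these values for a gene near 1 TPM: by the means of TPM, P4ha3 was 18.9 times as high in sham as in intact and 5.54 times as high in pMx as in sham.

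TPM is scaled by transcript length, so the alpha subunits can be set against each other within a library. P4ha3 made up 1.52%, 1.08% and 1.45% of the summed alpha subunit TPM in the intact libraries, 17.9%, 19.2% and 14.2% in the sham libraries and 33.3%, 36.5% and 34.6% in the pMx libraries. The share of P4ha1 went from 67.2% ± 2.29 in intact to 51.4% ± 2.67 in sham and 42.9% ± 1.78 in pMx (SD, n = 3 each). The share of P4ha2 was 31.4% ± 2.27 in intact, 31.4% ± 1.69 in sham and 22.2% ± 0.208 in pMx (SD, n = 3 each). P4ha1 was the most abundant of the alpha subunits in all 9 libraries, whereas P4ha2 and P4ha3 changed places: P4ha2 was above P4ha3 in each intact and sham library and below it in each pMx library. The shares of a library add up to its whole, and the comparisons share libraries, so the 9 comparisons of shares are not independent. Between groups, 8 of the 9 shares compared did not overlap, each with p = 0.1 in a two-sided exact permutation test (0.113 after adjustment over 9), the smallest p that 3 against 3 allow. The share of P4ha2 in sham versus intact was the exception (exact permutation p = 1).

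**Figure D2:**
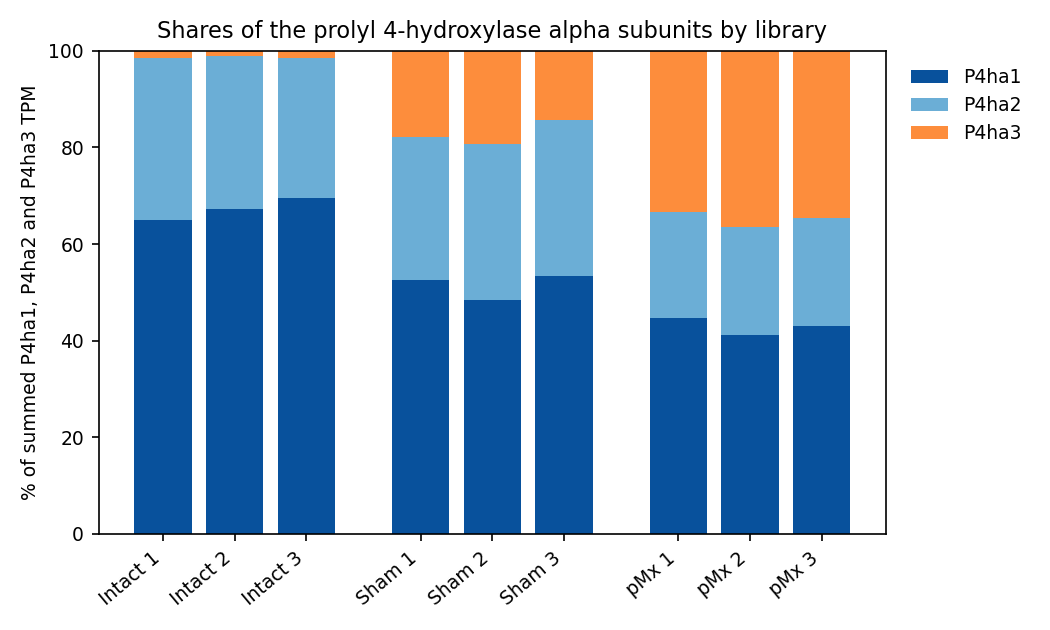
Share of the summed TPM of P4ha1, P4ha2 and P4ha3 (vertical axis, percent, from 0 to 100) that each takes in each of the 9 libraries. The P4ha3 segment is 1.08% to 1.52% in intact, 14.2% to 19.2% in sham and 33.3% to 36.5% in pMx libraries.

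P4hb, the beta subunit and a disulfide isomerase of secreted proteins in general, was at 479.42, 474.63 and 376.41 TPM in intact, 620.52, 643.62 and 554.34 TPM in sham and 1148.53, 1154.13 and 1143.15 TPM in pMx libraries. The groups did not overlap, and the SD of the pMx libraries was 0.478% of their mean. The log2 fold change was 0.92 (SE 0.103, adjusted p = 2.58e-04) for pMx versus sham and 0.46 (adjusted p = 0.0264) for sham versus intact. Against the summed alpha subunits, P4hb TPM was 3.85 to 4.11 times as high in intact, 3.55 to 3.84 times in sham and 2.47 to 2.65 times in pMx libraries. The ratio of beta to summed alpha transcripts was thus lowest in the pMx libraries, without overlap. That sum includes P4ha3, which made up 1.08% to 1.52% of it in intact and 33.3% to 36.5% in pMx libraries.

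Among the chaperones, Serpinh1, which is dedicated to procollagen, was the most abundant of the 10 genes in every library. It was at 736.75, 751.19 and 578.09 TPM in intact, 1152.77, 1252.52 and 1066.22 TPM in sham and 3171.47, 2794.44 and 2975.74 TPM in pMx libraries. The groups did not overlap, and by TPM the gene stood between the 39th and 49th place of all genes in the pMx libraries, after the 133rd to 146th in sham and the 193rd to 252nd in intact. Its log2 fold change was 1.37 (SE 0.118, adjusted p = 8.44e-05) for pMx versus sham and 0.75 (adjusted p = 0.00811) for sham versus intact.

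Fkbp10 (FKBP65), a peptidyl-prolyl isomerase that also acts on lysyl hydroxylation, was at 100.32, 103.57 and 70.55 TPM in intact, 157.67, 163.63 and 139.60 TPM in sham and 405.79, 415.25 and 405.38 TPM in pMx libraries. Again the groups were apart. The log2 fold change was 1.41 (SE 0.136, adjusted p = 1.37e-04) for pMx versus sham and 0.76 (adjusted p = 0.0126) for sham versus intact, so it moved much as Serpinh1 did. The ratio of Serpinh1 to Fkbp10 TPM was 7.60 ± 0.519 in intact, 7.53 ± 0.194 in sham and 7.30 ± 0.544 in pMx libraries (SD, n = 3 each), a pair chosen after its values were seen and not tested.

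P3h1 and Crtap, which work in a single complex, did not move alike. P3h1, the prolyl 3-hydroxylase of the complex, was at 29.55, 32.93 and 25.60 TPM in intact, 50.56, 50.20 and 37.87 TPM in sham and 145.31, 150.65 and 138.35 TPM in pMx libraries, with no overlap between groups. It had the second highest log2 fold change of the 10 genes in pMx versus sham, 1.64 (SE 0.125, adjusted p = 5.14e-05), and 0.63 (adjusted p = 0.0177) in sham versus intact. Crtap, its non-catalytic partner, was at 115.09, 140.82 and 95.44 TPM in intact, 120.41, 124.1 and 109.99 TPM in sham and 203.04, 213.38 and 207.21 TPM in pMx libraries. The intact libraries lay on both sides of the sham libraries, and the pMx libraries above all of them.

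Crtap had a log2 fold change of 0.81 (SE 0.124, adjusted p = 0.00123) for pMx versus sham and 0.03 (95% interval -0.25 to 0.31, adjusted p = 0.908) for sham versus intact, where the sign turned (-0.11) without intact replicate 3. Ppib, cyclophilin B and the other partner in the complex, had a log2 fold change of 0.46 (adjusted p = 0.0145) in pMx versus sham. In TPM, P3h1 was 0.253 ± 0.0175 of Crtap in intact, 0.390 ± 0.0400 in sham and 0.696 ± 0.0254 in pMx libraries (SD, n = 3 each). The corresponding ratio of P3h1 to Ppib was 0.0530 ± 0.00490, 0.0632 ± 0.00811 and 0.144 ± 0.00785. Both ratios were chosen after their values were seen and were not tested, and in both the pMx libraries lay above the others.

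The extracellular pair came out of both comparisons with higher levels by the adjusted p alone and no DEG. Pcolce, the enhancer of the C-propeptide protease, was at 593.15, 519.64 and 367.50 TPM in intact, 801.09, 819.83 and 737.55 TPM in sham and 1253.82, 1283.83 and 1251.77 TPM in pMx libraries. Its groups did not overlap, and the steps from intact to sham and from sham to pMx were of like size, with log2 fold changes of 0.70 (95% interval 0.35 to 1.05, adjusted p = 0.0247) and 0.68 (95% interval 0.33 to 1.04, adjusted p = 0.00866). Bmp1, the protease itself, was at 86.48, 96.27 and 74.35 TPM in intact, 132.22, 142.30 and 128.42 TPM in sham and 257.91, 264.70 and 222.63 TPM in pMx libraries, also without overlap. The log2 fold change of Bmp1 was 0.65 (adjusted p = 0.00884) for sham versus intact and 0.88 (SE 0.103, adjusted p = 3.41e-04) for pMx versus sham. Pcolce TPM was 5.73 ± 1.00 times that of Bmp1 in intact, 5.85 ± 0.177 times in sham and 5.11 ± 0.443 times in pMx libraries (SD, n = 3 each), an untested ratio chosen after its values were seen. Its pMx libraries (4.85 to 5.62) lay below its sham libraries (5.74 to 6.06), and the intact libraries (4.94 to 6.86) overlapped both.

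**Figure D3:**
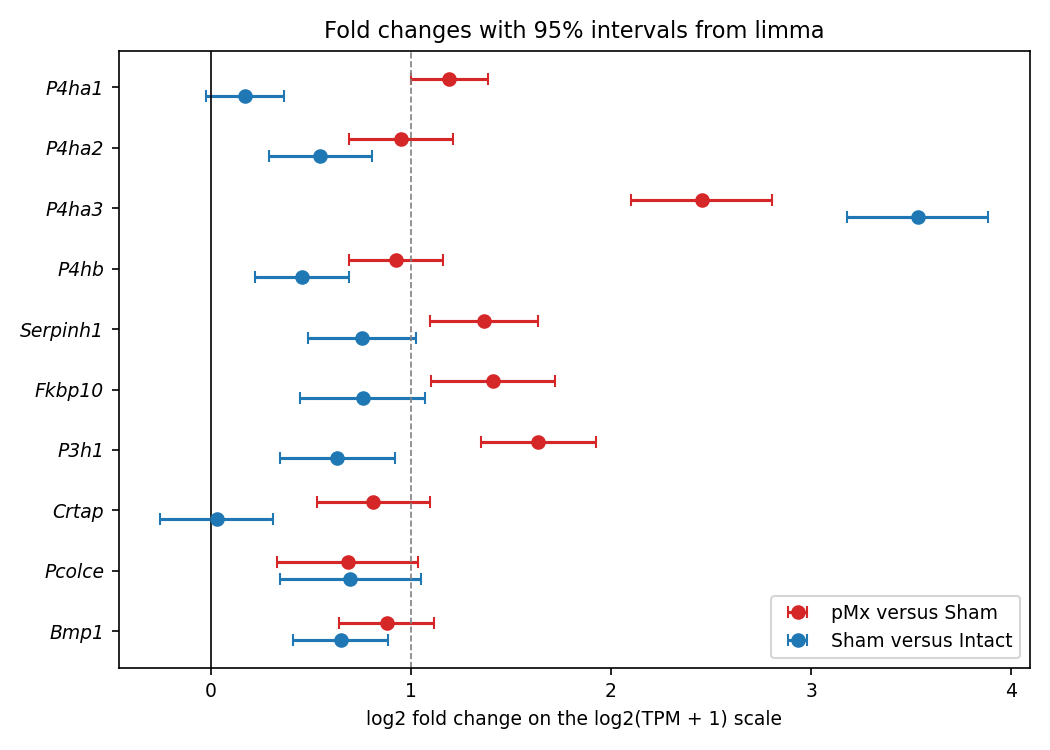
Log2 fold changes on the log2(TPM + 1) scale (horizontal axis) of the 10 genes for pMx versus sham and sham versus intact, with 95% intervals from limma. The dashed line is the DEG threshold of 1. P4ha3 is highest in both comparisons at 2.45 and 3.53, and the only intervals that cross 0 are those of P4ha1 and Crtap in sham versus intact.

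In the pMx libraries the order of mean levels, in TPM, was Serpinh1, Pcolce, P4hb, Fkbp10, Bmp1, Crtap, P4ha1, P4ha3, P3h1 and P4ha2. P4ha3 and P3h1 overlapped in range and were the only neighbors in that order to do so. In the intact libraries P4ha3 was last of the 10 at 1.49 ± 0.252 TPM (SD, n = 3). The SD was 0.478% to 9.09% of the mean for the 10 genes in pMx, 5.34% to 22.2% in sham and 8.05% to 23.3% in intact libraries. Intact replicate 3 was the lowest of its group for 9 of the 10 genes and sham replicate 3 the lowest of its group for 10 of the 10. Pairs of the 10 genes had a Pearson r of log2(TPM + 1) from 0.781 (P4ha3 and Crtap) to 0.999 (P4hb and Fkbp10) over the 9 libraries, with a median of 0.965 over 45 pairs. This describes points that share the 3 groups and is given without a p.

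Transcripts for most chains of fibrillar procollagen, the substrate of these proteins, were also more abundant in the same tissues. The 11 genes for fibrillar procollagen chains summed to 8630, 7975 and 5243 TPM in intact, 18870, 20982 and 16362 TPM in sham and 51298, 53981 and 49656 TPM in pMx libraries. That was 0.524% to 0.863%, 1.64% to 2.10% and 4.97% to 5.40% of all TPM. In pMx versus sham 8 of the 11 were higher DEGs, against 3.36% of all genes, and none was a lower one. Their median log2 fold change was 1.77. Col11a1, Col5a1 and Col5a3 had the highest values (3.30, 2.37 and 2.26), whereas Col2a1 (-0.06) and Col11a2 (0.46) did not pass. Col1a1 and Col1a2, the chains of type I collagen, had 1.81 and 1.77, and Col3a1 had 0.97. In sham versus intact 7 of the 11 were higher DEGs, against 1.42% of all genes, with a median of 1.31.

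Each of the 10 genes was therefore also expressed per TPM of fibrillar procollagen in the same library. From sham to pMx, 5 of the 10 were lower by this measure without overlap (P4ha2, P4hb, Crtap, Pcolce and Bmp1), 2 were higher without overlap (P4ha3 and P3h1), and P4ha1, Serpinh1 and Fkbp10 overlapped. Of all genes tested, 84.6% were lower and 1.45% higher without overlap when divided in the same way. From intact to sham 9 of the 10 were lower, against 82.1% of all genes, and from intact to pMx 9 of the 10, against 87.7%, with P4ha3 the only exception in both and higher, as were 0.727% and 1.37% of all genes. The choice of denominator mattered in pMx versus sham, where 9 of the 10 were lower without overlap per TPM of Col1a1, against 86.8% of all genes, and 2 per TPM of Col3a1, against 78.3%. P4ha3 was higher without overlap by each of these denominators. P3h1, Serpinh1 and Fkbp10 were lower without overlap per Col1a1 and higher without overlap per Col3a1. For P3h1 the gap per Col1a1 was narrow: per 1000 TPM the highest pMx value was 9.558 and the lowest sham value 9.577.

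Per 1000 TPM of fibrillar procollagen, P4ha3 was at 0.205, 0.160 and 0.271 in intact, 1.66, 1.54 and 1.28 in sham and 2.93, 2.94 and 3.22 in pMx libraries. The groups did not overlap, and the log2 difference from sham to pMx was 1.03. Serpinh1 was at 85.4, 94.2 and 110 in intact, 61.1, 59.7 and 65.2 in sham and 61.8, 51.8 and 59.9 in pMx libraries, with sham and pMx overlapping (log2 difference -0.10, exact permutation p = 0.5). Pcolce was at 68.7, 65.2 and 70.1 in intact, 42.5, 39.1 and 45.1 in sham and 24.4, 23.8 and 25.2 in pMx libraries. Pcolce had the largest drop of the 10 from sham to pMx by this measure, with a log2 difference of -0.78. Undivided, its log2 fold change was 0.68, and 84.6% of all genes tested were lower without overlap by this measure. For Crtap the difference was -0.65. For P3h1 it was 0.19, and its sign turned per TPM of Col1a1 (-0.15). Of the 30 comparisons by gene and pair of groups, the 27 without overlap had p = 0.1 in a two-sided exact permutation test (0.111 after adjustment over 30), the smallest p possible here.

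**Figure D4:**
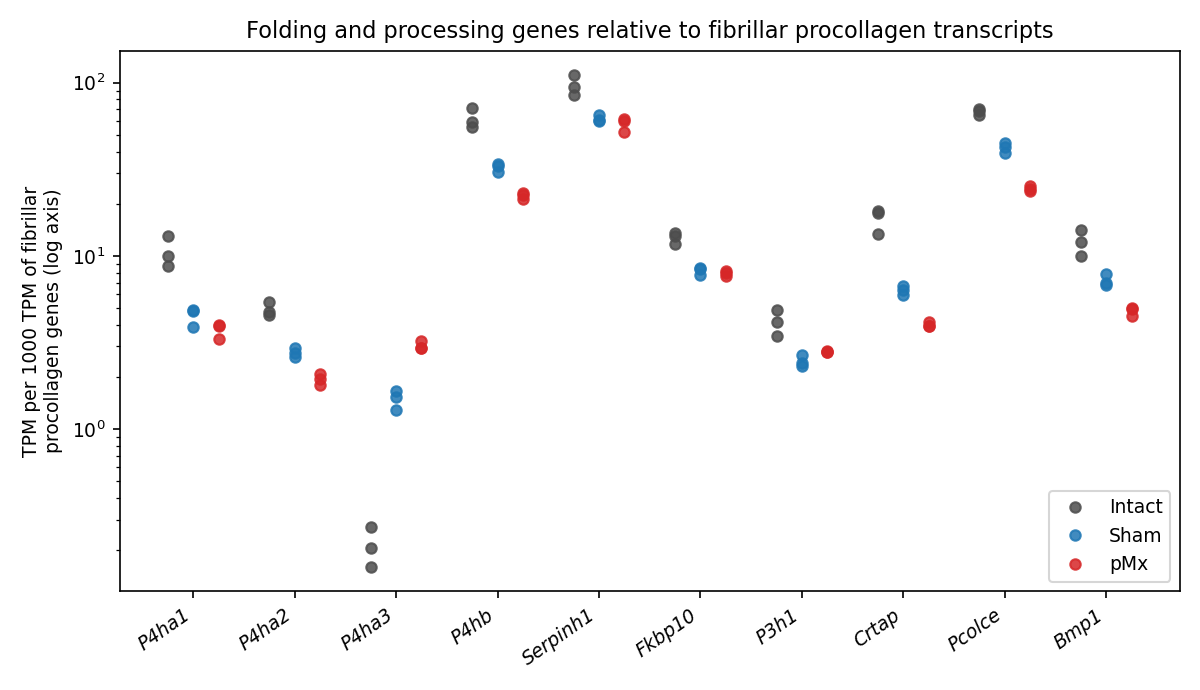
TPM of each of the 10 genes per 1000 TPM of the 11 fibrillar procollagen genes in the same library (vertical axis, log scale), with 3 points for each group. P4ha3 lies higher in sham than in intact and higher again in pMx libraries, while Pcolce lies at 65.2 to 70.1 in intact and at 23.8 to 25.2 in pMx libraries.

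Other genes of the pathway moved in part with the 10. Of 17 further ER proteins that modify or bind procollagen, 4 were higher DEGs in pMx versus sham, against 3.36% of all genes. A further 1 was a lower DEG, against 4.85%. By the adjusted p alone 12 of the 17 were higher and 2 lower, against 17.7% and 18.9% of all genes. Their median log2 fold change was 0.75. The higher DEGs were P3h4 (1.71), which supports lysyl hydroxylation, Plod2 (1.63), the lysyl hydroxylase of telopeptides, Fkbp11 (1.33), an isomerase of secretory cells, and Plod3 (1.04), a lysyl hydroxylase that also adds glucose. P3h2, the prolyl 3-hydroxylase linked to basement membrane collagen, had the lowest value (-1.11, adjusted p = 2.12e-04), so that within the prolyl 3-hydroxylase family P3h1 rose and P3h2 fell, and P3h3 rose by less (0.75, adjusted p = 0.00168). P3h2 was at 8.42, 11.23 and 9.95 TPM in intact, 4.88, 5.72 and 4.87 TPM in sham and 1.82, 1.76 and 1.99 TPM in pMx libraries. Colgalt2, a collagen galactosyltransferase, was the other lower gene (-0.75), and Tmem38b, an ion channel of the ER, had -0.35 and did not pass. In sham versus intact 1 of the 17, Fkbp11, was a higher DEG, against 1.42% of all genes. By the adjusted p alone 5 were higher and 2 lower there, against 6.73% and 5.97% of all genes. Plod2 had a log2 fold change of 0.00 (95% interval -0.28 to 0.27) in sham versus intact.

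Of 15 genes for export of procollagen from the ER, 2 were higher DEGs in pMx versus sham, against 3.36% of all genes. None was a lower DEG. By the adjusted p alone 9 were higher, against 17.7% of all genes, and the median was 0.42. Kdelr2 (1.31) and Kdelr3 (1.13), which return chaperones from the Golgi, and Sec24d (0.99), a coat protein of the export vesicle, had the highest values. Trappc2 (-0.20), Sar1b (-0.16) and Klhl12 (-0.09) had the lowest, and none of these passed. In sham versus intact none of the 15 was a DEG, and 3 were higher by the adjusted p alone, against 6.73% of all genes.

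A list of 9 other genes for propeptide removal held proteases and Pcolce2, a relative of Pcolce. In the table were 6 of the 9, and Tll2, Pcolce2 and Mep1b were not analysed here. Adamts14, an N-propeptidase, was the 1 higher DEG in pMx versus sham (1.56, adjusted p = 3.61e-04), against 3.36% of all genes. Adamts3, an N-propeptidase of its family, had 0.56 (adjusted p = 0.00263 in limma). It was at 0.28 to 0.44 TPM in sham and 0.86 to 1.31 TPM in pMx libraries, where the pseudocount of 1 TPM lowers the value. Adamts2, the main N-propeptidase of type I collagen, had 0.40 (adjusted p = 0.0739). Tll1, a close relative of Bmp1, had -0.36 (adjusted p = 0.0330), below 0 where Bmp1 was above it. The median of the 6, which include Mep1a at 0 TPM in 5 libraries, was 0.33. In sham versus intact none of the 6 was a DEG, and the median was 0.08. Adamts2 (0.94, adjusted p = 0.00946) and Adamts14 (0.68, adjusted p = 0.0482) were higher and Tll1 (-0.49) lower by the adjusted p. Of all genes, 6.73% were higher and 5.97% lower in that way. In pMx versus intact Adamts2 (1.33) and Adamts14 (2.24) were higher DEGs, as were 6.40% of all genes.

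Of 16 genes of general ER folding and ER stress, none was a higher DEG in pMx versus sham, against 3.36% of all genes. Ero1b was the 1 lower DEG (-1.34), against 4.85%. By the adjusted p alone 10 were higher and 3 lower, against 17.7% and 18.9% of all genes, and the median was 0.59. Hspa5 (0.84), the main ER chaperone of the Hsp70 family, Calr (0.83), a lectin chaperone, and Ero1a (0.80), an oxidase, had the highest values. Pdia3, a disulfide isomerase of glycoproteins, had 0.60. Ddit3 (-0.49), a transcription factor of ER stress, and Herpud1 (-0.27), a part of ER degradation, were below 0. In sham versus intact the median was 0.07, with no DEG. By the adjusted p alone 2 were higher and 1 lower there, against 6.73% and 5.97% of all genes. Of 12 other hydroxylases that use 2-oxoglutarate, 5 were in the list of ER proteins above. In pMx versus sham 2 of the 12 were higher DEGs (Plod2 and Plod3), against 3.36% of all genes. P3h2 was the 1 lower DEG, against 4.85%. All of these were of that list, and the median of the 12 was 0.30. Egln1, Egln2 and Egln3, the prolyl hydroxylases of hypoxia-inducible factor, had -0.03, 0.05 and 0.21 and did not pass.

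**Figure D5:**
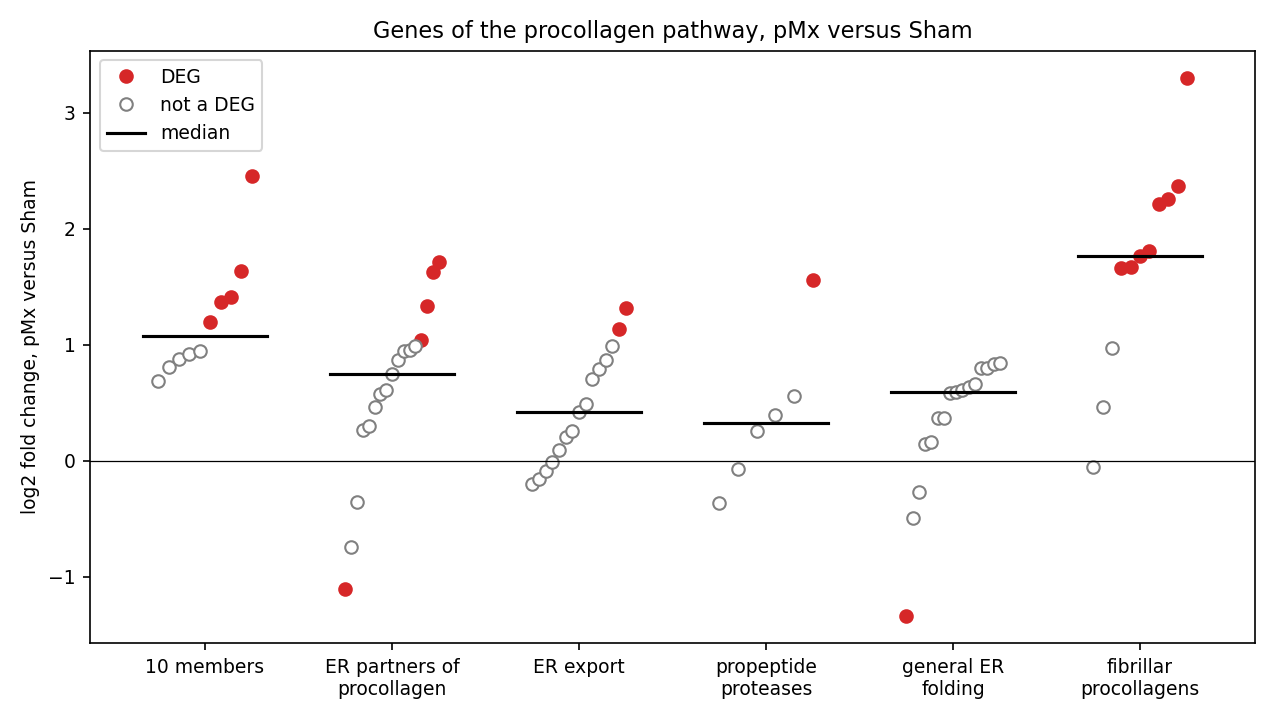
Log2 fold change of pMx versus sham on the log2(TPM + 1) scale (vertical axis) for each gene of 6 lists, with DEGs filled and the median as a line. The medians are 1.07 for the 10 genes, 0.75 for ER partners, 0.42 for ER export, 0.33 for propeptide proteases, 0.59 for general ER folding and 1.77 for fibrillar procollagens.

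The genes whose pattern was most like each of the 10 were taken as those with the highest Pearson r of log2(TPM + 1) over the 9 libraries among 8752 genes with a mean of at least 10 TPM. For P4ha3 these were Kcnn4 (r = 0.999), a calcium-activated potassium channel, Lrrc15 (0.998), a membrane protein known from activated fibroblasts, and Msln (0.998), mesothelin. Lrrc15 came closest in level as well, with a mean of 0.907 TPM in intact, 31.6 TPM in sham and 249 TPM in pMx libraries. For P4ha1 they were Rab2a (0.995), Cyp51 (0.994) and Eno1 (0.993), a glycolytic enzyme, and for P4ha2 Shc1 (0.999), Fkbp10 (0.998) and Sec24d (0.998). P4hb and Fkbp10 each had Rcn1, a calcium-binding protein of the ER, as their nearest gene, and each other among the next. Serpinh1 was nearest to Selenom (0.999), P3h1 to Lrrc59 (0.998), Crtap to Prickle1 (0.993), Pcolce to Dkk3 (0.997) and Bmp1 to Hps4 (0.997). Each r rests on 9 libraries in 3 groups and is a description.

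Genes next to the 10 on the chromosomes were also read, in the order of the RefSeq annotation. Of 18 neighbors tested, 1 was a higher DEG in pMx versus sham, P3h4 beside Fkbp10, against 3.36% of all genes. The 1 lower DEG was Cldn19 beside P3h1 (-1.08), against 4.85%. P3h4 was at 22.17, 24.87 and 19.39 TPM in intact, 35.69, 40.67 and 30.52 TPM in sham and 120.91, 113.57 and 120.44 TPM in pMx libraries. Both Fkbp10 and its neighbor were thus higher in every pMx library than in any other. Of all genes tested, 27.0% were higher in pMx than in sham without overlap.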

How the data were processed

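Sequencing on a BGI platform used random-primed cDNA with dUTP in its second strand, made from oligo-dT-selected RNA. The authors deposited TPM values for 17602 genes, computed with the Dr. Tom system; the submitters' processing notes name HISAT2 2.0.4 and mRatBN7.2, and the counting tool, annotation and filters are not given in the sources used here. TPM keeps no read numbers, so depth is unknown and precision is the spread between 3 libraries. TPM is relative to a fixed total, so a rise in abundant genes lowers the rest. Of the columns of per-sample values, 0 went unused.

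log2(TPM + 1) was fitted with 1 mean per group over 9 libraries in limma 3.58.1 (R 4.3.3; eBayes with trend), for 16512 genes above 0 TPM in at least 3 libraries, with Benjamini-Hochberg adjustment over all of them. In simulated data of 16511 genes for pMx versus sham, 96.5% of 200 genes changed by 2 (log2) were recovered with 1 false call. The changed genes were drawn from those with a mean log2(TPM + 1) above 2. Smaller changes, such as those of most of the 10 genes, were not simulated. Shares and ratios of TPM were compared by exact permutation. The 10 genes and the lists were chosen with earlier results of these data known. All 10 genes are named; of each list, at most the 3 highest and the 3 lowest in pMx versus sham are, with Ppib, P3h4, Plod2, Adamts2, Tll1, Pcolce2, Col1a1, Col1a2, Col3a1, Hspa5 and Pdia3 always. Plod3, P3h3, Egln1 to Egln3 and the single cell type markers were named after their values were seen. A list of Bmp1 substrates was set aside because some entries were uncertain. Alternatives were other pseudocounts, filters, scalings and eBayes settings, a replicate block, the 6 libraries of a comparison, other thresholds and leaving out each library.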

Additional observations from a re-analysis of the deposited data

How the results depend on the processing

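The counts of DEGs among the 10 genes (5 for pMx versus sham, 1 for sham versus intact and 9 for pMx versus intact) were the same with other pseudocounts, filters, scalings and eBayes settings, with only the 6 libraries of a comparison, at an adjusted p below 0.01 and without each library in turn. By the adjusted p alone they were 10, 8 and 10. Chosen after seeing the data, the count past the adjusted p alone in sham versus intact was 3 with only the 6 libraries, and from 3 to 8 when libraries were left out; in the other comparisons it was 10 throughout. Whether replicate numbers pair the libraries is not stated, and the deviations did not settle it. Same-numbered pMx and sham libraries deviated with r = 0.03, 0.37 and 0.48, and differently numbered ones with -0.47 to 0.31. Same-numbered sham and intact libraries had 0.00, -0.40 and -0.49, and differently numbered ones -0.40 to 0.47. With the replicate number as a block, the counts of DEGs among the 10 genes were 5, 1 and 9, and by the adjusted p alone 10, 8 and 10.

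Crtap in sham versus intact ranged from -0.11 (without intact replicate 3) to 0.17, and was -0.01 without sham replicate 2. The difference in the P4ha2 share between sham and intact, -0.00072 points, ranged from -1.20 to 1.06 points when libraries were left out. Genes lower without overlap per Col1a1 TPM in pMx versus sham were 9, against 86.8% of all genes. Per Col3a1 TPM they were 2, against 78.3%. Serpinh1, Fkbp10 and, by a narrow gap per Col1a1, P3h1 turned from lower to higher between these denominators. Per TPM of all fibrillar procollagen genes they were 5 to 7 without single libraries. With a pseudocount of 0.01, P4ha3 had a log2 fold change of 4.22 in sham versus intact and 6.72 in pMx versus intact. Over all genes, DEGs in pMx versus sham numbered 1355, and 2229 and 2303 with pseudocounts of 0.1 and 0.01; in sham versus intact they numbered 323, and 612 and 603, and 193 without sham replicate 2; in pMx versus intact they numbered 2360, and 3531 and 3662. The causes were not tested.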
